A study of Homo sapiens with 10 samples.

Results

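The genes described here are 9 structural and matrix genes that mesenchymal cells use: VIM, FN1, SPARC, TGFBI, LOX, LOXL2, CDH2, CDH11 and S100A4. They were chosen by name, out of 20098 protein-coding genes on chromosomes 1 to 22 and X, and their chromatin was read from every peak that shared at least 1 base with the gene widened by 50 kb on each side. The cells were MDAMB231, a human triple-negative breast cancer line obtained from ATCC and grown in DMEM with 5% FBS, with no treatment. The data comprised 10 samples: 2 each of FAIRE-seq, which recovers open DNA, and of ChIP-seq for H3K4me3, H3K27Ac and H3K4me1, in which an antibody pulls down DNA on a modified histone, with 1 input for each method. Both samples of an assay had been combined into a single list of peaks, so no peak carries an error between replicates and no treatment or other cell type was compared. The lists held 18019 peaks for H3K4me3, 37495 for H3K27Ac, 26771 for H3K4me1 and 46552 for FAIRE. Sequencing depth is not recorded in the lists.

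Epithelial cells that shift towards a mesenchymal state replace keratin filaments with vimentin, exchange one class of cadherin for another and secrete a matrix that they also crosslink. Basal-like breast cancer lines such as MDAMB231 are known for carrying much of this programme. H3K4me3 marks promoters, H3K27Ac marks active promoters and enhancers, H3K4me1 marks enhancers more broadly, and FAIRE recovers DNA that is depleted of nucleosomes.

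A promoter was any annotated start site of a gene widened by 1 kb on each side. An H3K4me3 peak lay at a promoter of 7 of the 9 genes, beside 67.3% of all protein-coding genes, and an H3K27Ac peak at 8 of 9, beside 63.5%. H3K4me1 peaks were found at promoters of 3 of 9 genes, beside 20%, and FAIRE peaks at 6 of 9, beside 39.3%. With the most upstream start of each gene alone the counts were 4 for H3K4me3, beside 61.7% of coding genes under the same rule, and 5 for H3K27Ac, beside 57.5%. With promoters of 2 kb the count for H3K4me1 was 6, beside 22.3%. The members have many annotated starts, with a median of 11 against 5 for all protein-coding genes, so the counts were also taken at the canonical start alone, the start of the transcript that Ensembl treats as representative. This reading, added after seeing the data, gave 7 genes for H3K4me3, 7 for H3K27Ac, 3 for H3K4me1 and 4 for FAIRE. The matching shares of the 19819 coding genes with a canonical start were 65.1%, 60.2%, 12.5% and 31.8%. SPARC and TGFBI account for all the differences between both readings. With 9 genes, these shares describe the set and were not tested against the background.

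**Figure D1:**
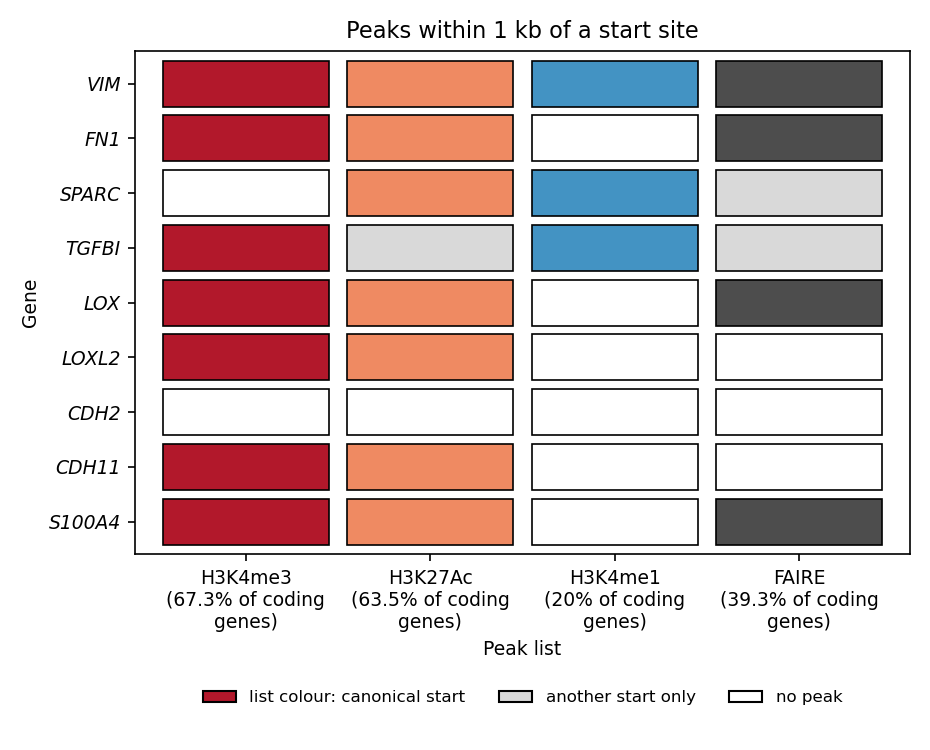
Presence of a peak from each of the 4 lists (columns) within 1 kb of a start site of each gene (rows). Coloured cells mark a peak at the canonical start, grey cells a peak only at another start of the gene and white cells no peak; the percentages are the shares of all protein-coding genes with a peak at any start. VIM carried all 4 lists at its canonical start and CDH2 carried none.

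The 9 genes fell into several chromatin states at the canonical start. FN1, LOX and S100A4 carried H3K4me3, H3K27Ac and FAIRE peaks without H3K4me1, a combination held by 23.5% of coding genes. LOXL2 and CDH11 carried H3K4me3 and H3K27Ac alone, held by 24.4%. VIM had all 4 lists, as did 6.58% of coding genes. SPARC, with H3K27Ac and H3K4me1 but neither H3K4me3 nor FAIRE, shared its state with 0.363% of coding genes. TGFBI, with H3K4me3 and H3K4me1 but neither H3K27Ac nor FAIRE, shared its state with 0.212%. CDH2 had none of the marks, the state of 32.8% of coding genes.

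VIM encodes vimentin, the intermediate filament of mesenchymal cells. Its start on chromosome 10 lay in an H3K4me3 peak of 8265 bp (chr10:17268306-17276570, GRCh37), wider than 99.5% of the 11419 H3K4me3 peaks at canonical starts, whose median width was 2893 bp. The score of a histone peak is minus 10 times the log10 of its MACS p-value, and this peak was at 3100. Since 56.8% of H3K4me3 peaks scored 3100 or higher, this level does not rank them. The H3K27Ac peak over the start was 8533 bp wide, also at 3100. The H3K4me3 and H3K27Ac peaks therefore covered most of this 9.35-kb gene.

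FAIRE peaks at VIM were adjoining, with heights of 51.2 and 84 on either side of a boundary just inside the gene. Peak height is in the units of the FindPeaks caller, and the median of the whole FAIRE list was 61.1. An H3K4me1 peak of 3777 bp with a score of 97.1 ended just inside the gene, and a further H3K4me1 peak of 5514 bp with a score of 145 lay over the middle and 3′ part of the gene. The open start site is shown on the plus strand from 250 bases before the start, at chr10:17269990-17270269, with a GC box (GGGCGG, searched on both strands) in capitals:

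VIM promoter: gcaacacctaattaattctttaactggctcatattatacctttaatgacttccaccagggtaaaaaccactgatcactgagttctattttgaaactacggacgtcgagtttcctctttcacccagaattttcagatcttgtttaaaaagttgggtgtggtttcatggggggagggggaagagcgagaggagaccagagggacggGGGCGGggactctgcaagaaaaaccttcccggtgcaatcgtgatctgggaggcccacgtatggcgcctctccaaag

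Upstream of VIM stood a 14.8-kb H3K27Ac domain (chr10:17246953-17261799), centred 15.9 kb before the start, also at a score of 3100 and wider than 99.6% of all H3K27Ac peaks. It held 4 FAIRE peaks, the tallest of which, 11.9 kb before the start, reached a height of 125, above 94.1% of the list. The next, 21.6 kb before the start, reached 95.7. No H3K4me1 peak overlapped the domain. An H3K4me3 peak with a score of 581 lay inside it, at a start of the antisense transcript VIM-AS1, so part of the domain is itself annotated as a promoter. Separate H3K4me3 and H3K27Ac peaks at 3100 marked the start of TRDMT1, the former centred 27.5 kb upstream of VIM. The other H3K4me1 peaks of the window had scores of 71 at TRDMT1 and 50.4 at 29.6 kb downstream. The centre of the tallest FAIRE peak, at chr10:17258224-17258523 on the plus strand, held an AP-1 motif (TGANTCA, searched on both strands, N being any base), in capitals:

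VIM upstream FAIRE centre: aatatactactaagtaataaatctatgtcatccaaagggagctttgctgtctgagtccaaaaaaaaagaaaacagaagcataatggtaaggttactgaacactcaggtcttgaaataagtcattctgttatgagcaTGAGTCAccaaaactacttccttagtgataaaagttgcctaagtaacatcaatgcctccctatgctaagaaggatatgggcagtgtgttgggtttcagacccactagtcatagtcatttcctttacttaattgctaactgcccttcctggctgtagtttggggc

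The motif was centred 11 bases from the middle of this peak. A match of this kind is a description of the letters and does not show that a factor was bound.

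FN1 encodes fibronectin, a matrix glycoprotein that integrins bind. Its canonical start on chromosome 2 lay under an H3K4me3 peak of 3713 bp at a score of 3100 and an H3K27Ac peak of 5397 bp at 2012, while the FAIRE peak there had a height of only 37, above 10% of the list. The tallest FAIRE peak of the FN1 window, 89.7, was not at this start but in an intron 24.9 kb into the gene (chr2:216275302-216276507). It lay within an H3K27Ac peak of 3425 bp with a score of 778 and had no H3K4me1 peak over it. A minor start site of FN1 is annotated within 1 kb, so by the rule this element counts as a promoter, although it had no H3K4me3. Its central bases on the plus strand (chr2:216275754-216276053) also held an AP-1 motif, in capitals:

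FN1 intronic FAIRE centre: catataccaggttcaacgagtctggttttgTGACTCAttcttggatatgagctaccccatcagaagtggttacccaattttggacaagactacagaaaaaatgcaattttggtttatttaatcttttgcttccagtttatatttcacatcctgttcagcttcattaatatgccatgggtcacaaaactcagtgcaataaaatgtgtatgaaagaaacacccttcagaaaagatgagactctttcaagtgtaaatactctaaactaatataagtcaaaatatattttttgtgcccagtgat

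The single H3K4me1 peak of the FN1 window, of 3839 bp with a score of 98.6, began 1985 bp inside the gene. The start of ATIC, 124 kb downstream at the edge of the window, carried separate peaks, with scores of 2806 for H3K4me3 and 996 for H3K27Ac and a FAIRE height of 40.2. Further FAIRE peaks had heights of 54.7 at 2.39 kb into FN1, under the H3K4me1 peak, and 38.5 at 26.7 kb, within the intronic H3K27Ac peak.

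SPARC encodes osteonectin, a collagen-binding matrix glycoprotein. No H3K4me3 peak was found in its whole 126-kb window on chromosome 5, and the nearest lay 70.1 kb from the canonical start. The H3K27Ac peak counted at this start had a score of 220, above only 8.05% of H3K27Ac peaks at canonical starts, and its nearer edge was 646 bp inside the gene. An H3K4me1 peak of 4911 bp with a score of 132 did reach the start. The nearest FAIRE peak was 6.87 kb away, and SPARC counted as having a FAIRE promoter peak only through a minor internal start, beside a peak of height 55.6 centred 15.6 kb into the gene. The strongest SPARC element was 12.6 kb upstream (chr5:151077702-151080474): an H3K27Ac peak of 2773 bp with a score of 1343, with an H3K4me1 peak of score 130 and a FAIRE peak of height 92.4. Inside the gene, H3K27Ac peaks centred 11.1 and 14.9 kb from the start had scores of 340 and 382 and lay under a single H3K4me1 peak of 8256 bp with a score of 84.85. A further H3K4me1 peak at 22.2 kb scored 118, and the remaining FAIRE peaks were upstream, the taller of them at 20 kb with a height of 66.9. The profile of this gene thus had its strongest acetylation outside the promoter. Because few coding genes have H3K27Ac and H3K4me1 without H3K4me3 or FAIRE at the canonical start, that of SPARC is shown on the minus strand, at chr5:151066447-151066726. No GC box and no TATA box (TATAAA) was found in it, and 11 CpG dinucleotides gave a ratio of observed to expected CpG of 0.401 over the stretch from 250 bases before to 50 bases after the start:

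SPARC promoter: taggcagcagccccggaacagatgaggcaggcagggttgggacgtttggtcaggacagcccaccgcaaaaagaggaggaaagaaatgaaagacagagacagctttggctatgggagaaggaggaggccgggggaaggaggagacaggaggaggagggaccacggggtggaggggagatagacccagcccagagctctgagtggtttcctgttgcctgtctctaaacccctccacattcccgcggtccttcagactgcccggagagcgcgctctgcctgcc

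TGFBI encodes a secreted matrix protein induced by TGF-beta. The canonical start, also on chromosome 5, had an H3K4me3 peak of 2075 bp, narrower than the median of peaks at canonical starts, with a score of 1123, and an H3K4me1 peak of 6154 bp with a score of 106. From the start it was 6.51 kb to the closest H3K27Ac peak and 2.88 kb to the closest FAIRE peak. The rule nevertheless counts TGFBI under both lists, because minor internal starts lie by H3K27Ac peaks centred 24.6 kb and 29.2 kb into the gene, with scores of 959 and 803.

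Away from its start, TGFBI was densely marked, with 10 H3K27Ac and 10 FAIRE peaks in its window. The window held more H3K27Ac peaks than those of 96.6% of coding genes, and FAIRE peaks covered 7.86% of it, the highest share among the 9 genes. Upstream lay 5 H3K27Ac peaks, between 29.5 and 8.29 kb before the start, the strongest with a score of 2160 at 16 kb. The FAIRE peak 11.6 kb upstream (chr5:135352395-135353799) reached a height of 167, above 99.2% of the list and the tallest in any of the 9 windows. Heights of 129 and 110 were recorded 22.1 and 8.36 kb upstream. The former lay under an H3K4me1 peak of 5526 bp with a score of 380, the highest H3K4me1 score in the 9 windows, and was the only one of the upstream elements with H3K4me1. Inside the gene, FAIRE heights of 151 and 130 were recorded 24.9 and 29.7 kb from the start, both under an H3K4me1 peak of 9387 bp with a score of 252. An intronic element 8.19 kb from the start had an H3K27Ac score of 1720 with H3K4me1 at 157. Downstream, a further H3K4me3 peak with a score of 312 lay at VTRNA2-1. The start and the tallest FAIRE centre with an AP-1 match are shown on the plus strand, at chr5:135364427-135364706 with GC boxes in capitals and at chr5:135389400-135389699, centred in an intron, with the AP-1 motif in capitals:

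TGFBI promoter: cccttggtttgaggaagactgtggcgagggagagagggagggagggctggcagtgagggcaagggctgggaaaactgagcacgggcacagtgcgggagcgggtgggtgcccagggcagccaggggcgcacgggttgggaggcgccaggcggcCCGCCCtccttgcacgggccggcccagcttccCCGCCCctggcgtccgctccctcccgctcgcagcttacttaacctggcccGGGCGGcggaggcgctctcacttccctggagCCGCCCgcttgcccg
TGFBI intronic FAIRE centre: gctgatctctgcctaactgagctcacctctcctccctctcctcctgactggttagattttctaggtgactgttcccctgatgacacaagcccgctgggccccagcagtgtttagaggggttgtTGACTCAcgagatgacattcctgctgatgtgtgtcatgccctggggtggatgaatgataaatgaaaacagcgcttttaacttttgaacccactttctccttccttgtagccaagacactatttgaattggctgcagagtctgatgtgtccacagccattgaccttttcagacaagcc

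The TGFBI promoter thus held GC boxes and 27 CpG dinucleotides and carried H3K4me3, while its acetylation and open chromatin were on either side.

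**Figure D2:**
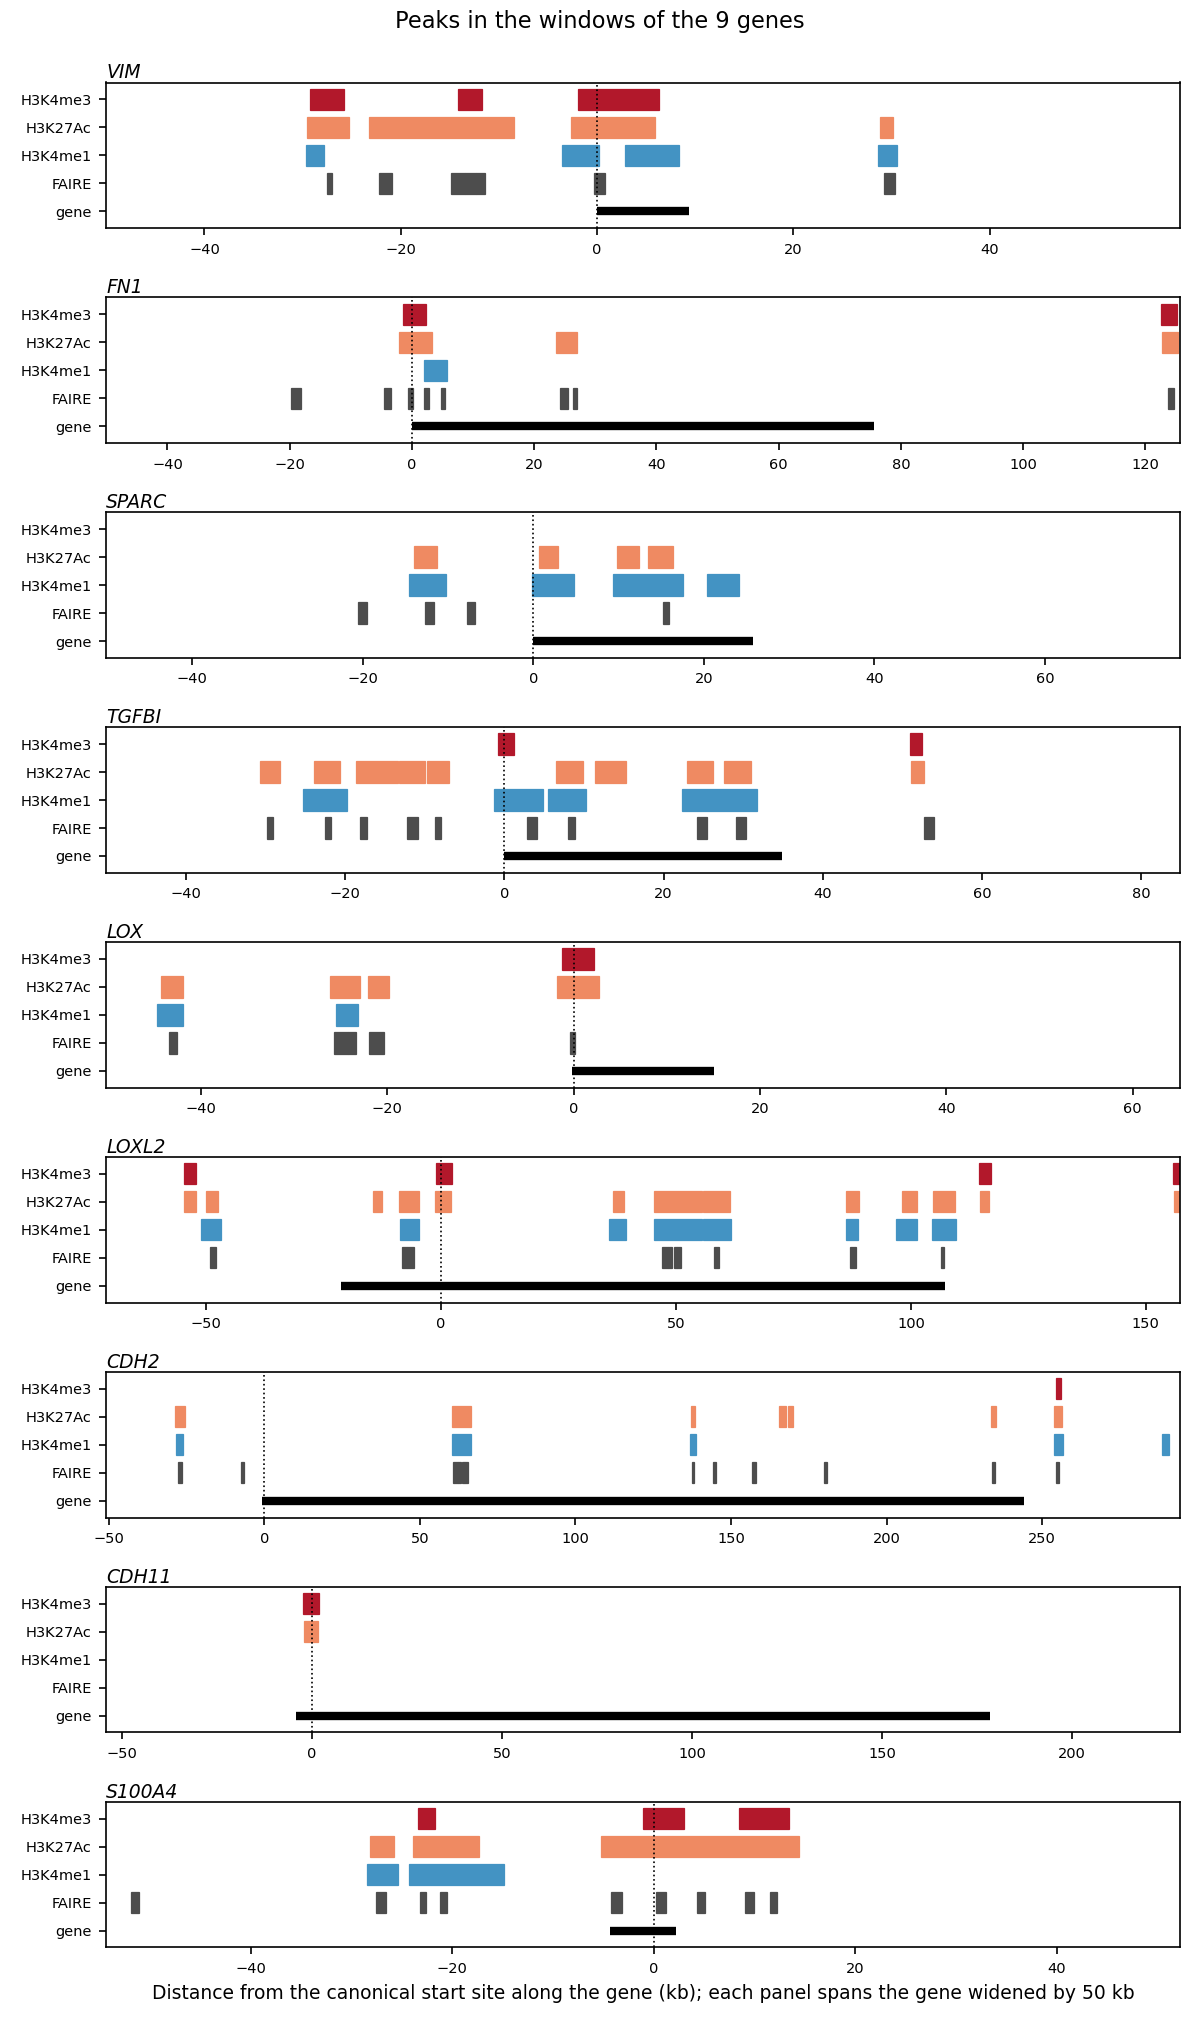
Peaks of the 4 lists around each gene, with distance in kb from the canonical start (dotted line) along the direction of transcription; coloured bars are peaks drawn to scale and the black bar is the annotated gene. SPARC lacks H3K4me3, the TGFBI start has no H3K27Ac above it, CDH2 peaks are away from the start and CDH11 has only a pair of peaks.

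LOX and LOXL2 encode lysyl oxidases, the enzymes that crosslink collagen and elastin. LOX, on chromosome 5, had an H3K4me3 peak of 3525 bp at 3100, an H3K27Ac peak of 4413 bp at 2585 and a FAIRE peak of height 53.7 at its start. The nearest H3K4me1 peak was 23.2 kb away. Upstream elements with both H3K27Ac and FAIRE were centred 20.9 kb, 24.5 kb and 43.1 kb before the start, with H3K27Ac scores of 609, 1138 and 120. H3K4me1 was present at the latter pair, with scores of 167 and 100.2, and not at the element nearest to LOX. The tallest FAIRE peaks upstream had heights of 76 at 43 kb and 66.7 at 24.9 kb. Apart from the promoter, no peak of any list lay inside LOX or downstream of it within the window.

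LOXL2, on chromosome 8, had H3K4me3 at 3100 over 3293 bp and H3K27Ac at 1918 over 3227 bp at its canonical start, while the nearest H3K4me1 and FAIRE peaks were 4.73 and 5.74 kb away. Its 228-kb window held 13 H3K27Ac, 8 H3K4me1 and 11 FAIRE peaks, the most H3K27Ac and H3K4me1 peaks of any of the 9 genes. The widest was an intronic H3K27Ac peak of 10289 bp (chr8:23206079-23216367) centred 50.4 kb into the gene, at 3100, with an H3K4me1 peak of 10172 bp and score 343 over it and 4 FAIRE peaks inside, the tallest at 129. A neighbouring intronic peak 58.6 kb into the gene scored 2744. On the other side of the start, 6.77 kb upstream of it and still within the bounds of longer LOXL2 transcripts, an H3K27Ac peak of 4125 bp at 3100 carried H3K4me1 at 374, above 90.3% of that list, and a FAIRE height of 107. This upstream peak was also centred within the bounds of ENTPD4, as were both peaks at the canonical start of LOXL2. The upstream element therefore cannot be assigned to LOXL2 alone. Peaks in the LOXL2 window lay mostly away from its start, as at TGFBI, but LOXL2 had both H3K4me3 and H3K27Ac at the start. H3K4me3 peaks at the starts of CHMP7, R3HCC1 and ENTPD4 made up the other 3 H3K4me3 peaks of the window, all at 3100.

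CDH2 encodes N-cadherin, the cadherin that is typically gained in the mesenchymal state. None of its 11 annotated starts had a peak of any list within 1 kb, a state shared by 29.3% of coding genes. The nearest H3K4me3 peak was 254 kb from the canonical start, beyond the 3′ end of the gene, with a score of 613, and the nearest FAIRE peak, 6.58 kb upstream, had a height of 31.2. The gene was nevertheless not bare: an intronic element 63.4 kb into it (chr18:25690711-25696715) had an H3K27Ac peak of 6005 bp at 3100. It carried H3K4me1 at 339 over 6110 bp and 5 FAIRE peaks, the tallest at 108. An element 27.2 kb upstream had H3K27Ac at 1919, H3K4me1 at 144 and FAIRE at 67.3. Of the 6502 coding genes without a peak of any list at the canonical start, 963, or 14.8%, had an H3K27Ac peak of 3100 or more in their window. That share was not matched for window length, and the CDH2 window, of 345 kb, was the longest of the 9, against a median of 127 kb for coding genes. H3K27Ac peaks covered 5.32% of it, below the coding-gene median of 6.17%.

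The CDH2 promoter was not poor in CpG. Its ratio of observed to expected CpG was 0.687, against a median of 0.861 for coding promoters with an H3K4me3 peak and 0.307 for those without. Among the 12092 coding promoters with a ratio at least as high as that of CDH2, 1441, or 11.9%, had no H3K4me3 peak at the canonical start. Its start (chr18:25757065-25757344, minus strand, GC box in capitals) and the centre of the tallest FAIRE peak with an AP-1 match in the intronic element (chr18:25692039-25692338, plus strand, AP-1 motif in capitals, height 61.1) read:

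CDH2 promoter: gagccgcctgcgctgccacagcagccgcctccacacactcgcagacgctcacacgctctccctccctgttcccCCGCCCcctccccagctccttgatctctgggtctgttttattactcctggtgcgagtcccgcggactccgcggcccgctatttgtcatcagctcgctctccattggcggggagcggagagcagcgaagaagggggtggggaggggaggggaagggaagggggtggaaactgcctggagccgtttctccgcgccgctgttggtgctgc
CDH2 intronic FAIRE centre: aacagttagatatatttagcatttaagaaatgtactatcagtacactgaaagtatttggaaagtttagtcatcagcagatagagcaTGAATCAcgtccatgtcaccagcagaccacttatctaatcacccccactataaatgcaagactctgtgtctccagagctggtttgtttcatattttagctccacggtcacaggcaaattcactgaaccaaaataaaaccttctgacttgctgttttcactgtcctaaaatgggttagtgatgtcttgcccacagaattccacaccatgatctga

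CDH11 encodes OB-cadherin, a cadherin of osteoblasts and fibroblasts. Its pattern was the inverse of that of CDH2: a promoter and nothing else. An H3K4me3 peak of 4311 bp at 3100, wider than 89.0% of those at canonical starts, and an H3K27Ac peak of 3600 bp with a score of 366, higher than 14.1% of those at canonical starts, were the only peaks in its 282-kb window. The nearest FAIRE peak was 214 kb from the start and the nearest H3K4me1 peak 1259 kb. Of the 11650 coding genes with H3K4me3 and H3K27Ac at the canonical start, 520, or 4.46%, had no FAIRE peak in their window.

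S100A4 encodes a calcium-binding protein of motile cells, also called fibroblast-specific protein. It lies among other S100 genes on chromosome 1, and its start was inside an H3K27Ac domain of 19.7 kb (chr1:153503841-153523532) at 3100, wider than 99.8% of H3K27Ac peaks at canonical starts. The domain also covered starts of S100A3, S100A5 and S100A6, so it cannot be assigned to S100A4 alone. H3K4me3 within it formed separate peaks, with a score of 1015 over 4022 bp at S100A4 and 3100 over 4964 bp at S100A6. It held 5 FAIRE peaks and no H3K4me1. The FAIRE peak nearest to the S100A4 start began 211 bp inside the gene and had a height of 87.8, and the tallest, 112, was near S100A6. Heights of 96.6 and 78.5 were recorded at the starts of S100A6 and S100A3. A further H3K27Ac peak of 6529 bp at 3100 lay 20.6 kb upstream at S100A2, under an H3K4me1 peak of 9423 bp with a score of 163 and over an H3K4me3 peak of only 53.8. Next to it, 27 kb upstream, stood an H3K27Ac peak of 333 with H3K4me1 at 67.9. The S100A4 promoter, on the minus strand at chr1:153518253-153518532, was the only one of the 8 promoters compared with a TATA box, in capitals, and had the lowest ratio of observed to expected CpG among them, 0.293:

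S100A4 promoter: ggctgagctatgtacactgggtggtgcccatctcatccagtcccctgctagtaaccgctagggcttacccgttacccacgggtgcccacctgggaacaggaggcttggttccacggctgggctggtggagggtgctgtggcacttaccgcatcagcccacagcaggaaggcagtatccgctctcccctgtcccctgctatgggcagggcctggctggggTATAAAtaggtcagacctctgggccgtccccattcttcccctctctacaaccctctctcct

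A TATA box was found in 9.65% of the 19818 coding promoters of known sequence and a GC box in 61.5%. No GC box was found at the starts of SPARC, LOXL2 and S100A4. H3K4me3 did not follow CpG content strictly in this small set, since S100A4 had the mark with a low ratio and CDH2 lacked it with a ratio close to the 0.688 of TGFBI. The H3K4me3 peaks of S100A4 and TGFBI were weak ones, however, with scores higher than 6.9% and 7.43% of those at canonical starts.

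**Figure D3:**
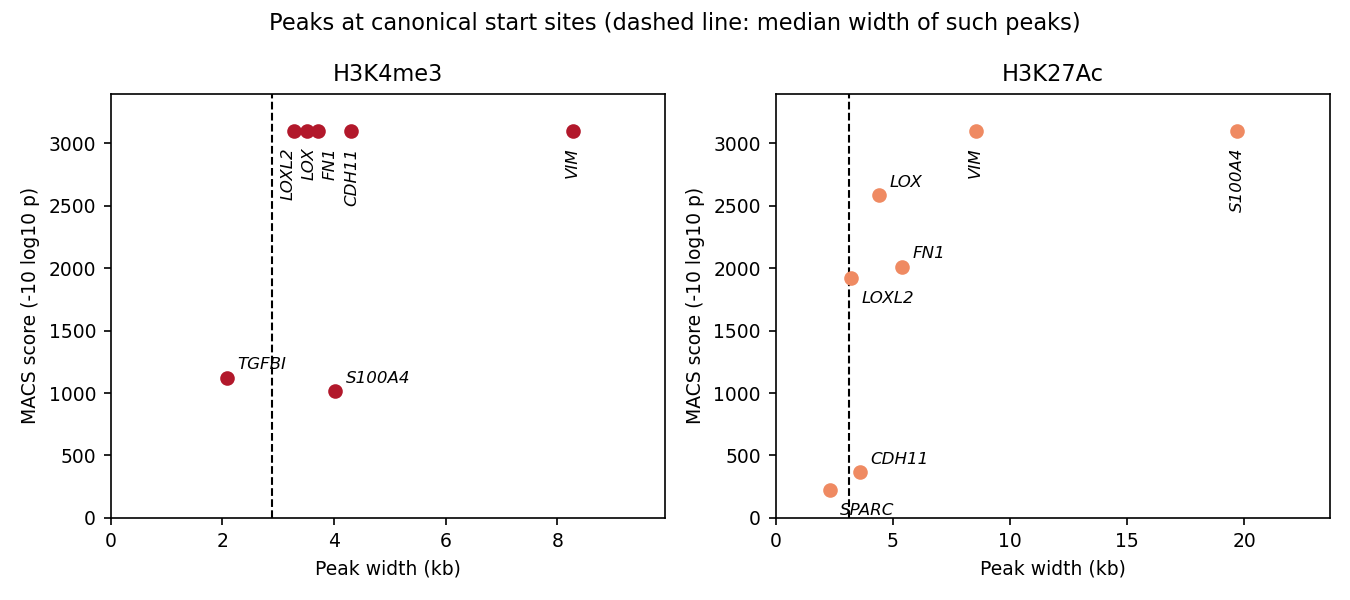
Width in kb (x axis) and MACS score (y axis, minus 10 times log10 p) of the H3K4me3 and H3K27Ac peaks within 1 kb of the canonical starts, each point a gene and the dashed line the median width of such peaks. VIM stands apart for H3K4me3 at 8.27 kb and S100A4 for H3K27Ac at 19.7 kb, while SPARC and CDH11 have the lowest H3K27Ac scores, 220 and 366.

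Over the whole windows, the members held a median of 8 FAIRE peaks, against 3 for all coding genes, and 4 H3K4me1 peaks, against 1. H3K27Ac peaks numbered 4 against 3, and H3K4me3 peaks 2 against 2. The median window was 135 kb for the members and 127 kb for all coding genes. Expressed as covered sequence, H3K4me1 peaks took up a median of 11.7% of the member windows against 2.44%, H3K27Ac 10.6% against 6.17%, FAIRE 4.47% against 1.84% and H3K4me3 3.06% against 3.62%. These medians of 9 genes were not tested. Higher FAIRE medians than that of all coding genes were also found in the lists of related genes, with 4 peaks for other mesenchymal and matrix genes, 7 for relatives of the members and 6.5 for epithelial genes. The H3K4me1 medians of these lists were 2.5, 2 and 1. A covered share above the coding-gene median was found in 8 of 9 windows for FAIRE, 7 for H3K4me1, 7 for H3K27Ac and 3 for H3K4me3. A median splits all coding genes into equal parts. By number of H3K27Ac peaks, FN1 and S100A4 did not exceed the median of 3, while CDH2 did with 7 peaks but a covered share of 5.32%. Among all coding genes, 56.1% did not exceed the median number of peaks for FAIRE, 60% for H3K4me1, 54.2% for H3K27Ac and 58.1% for H3K4me3. H3K4me1 coverage ranged from none at CDH11 to 19.2% at TGFBI. Adjoining FAIRE peaks are parts of a broader region that the caller divided, as at CDH2 and LOXL2, so peak numbers overstate the number of separate elements.

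**Figure D4:**
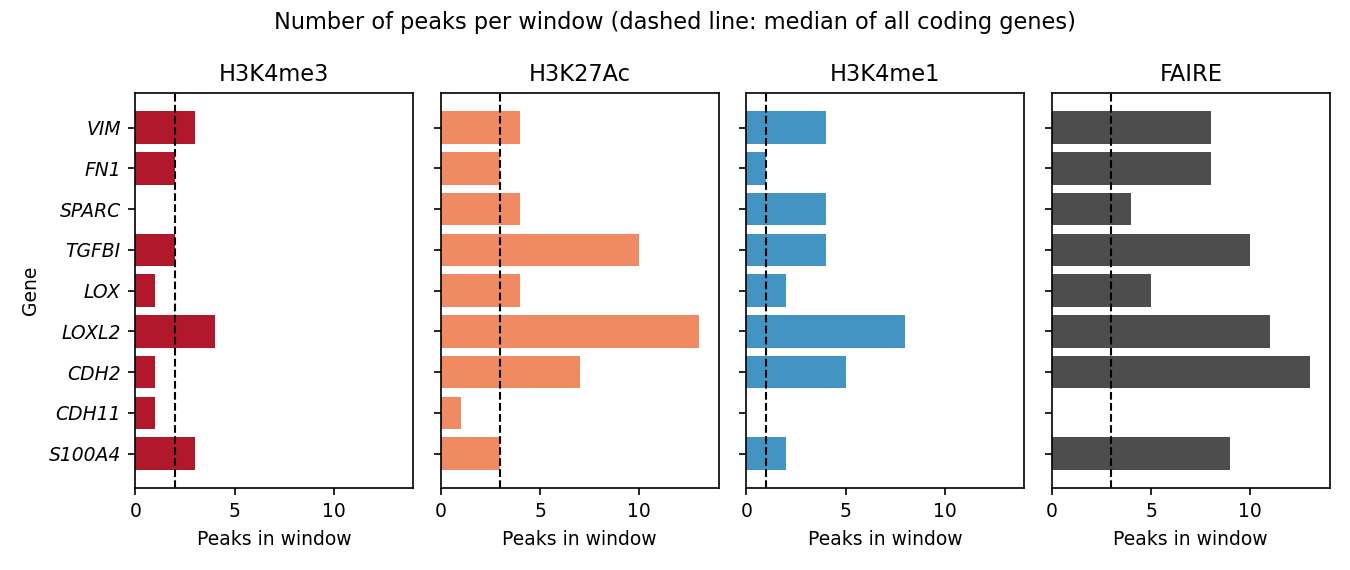
Number of peaks of each list in the window of each gene, with the median over all coding genes as a dashed line. FAIRE ranges from 0 at CDH11 to 13 at CDH2 and H3K27Ac from 1 at CDH11 to 13 at LOXL2.

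Away from canonical starts, 37 H3K27Ac peaks lay in the 9 windows, reaching no canonical start of a coding gene widened by 1 kb. Some of them lie at other annotated starts, such as those inside FN1, SPARC and TGFBI and a start of CHMP7 near LOXL2. Both H3K4me1 and FAIRE overlapped 20 of them, or 54.1%, close to the 55.5% of all 27056 H3K27Ac peaks chosen in this way. Another 9 had FAIRE alone, 3 had H3K4me1 alone and 5 had neither. TGFBI had 4 of those with FAIRE alone, all upstream of its start, and LOXL2 had 6 of those with both marks.

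FAIRE peak centres in the windows were searched over 300 bases for motifs of factors known in mesenchymal and basal cells, none of which contains another. An AP-1 motif was found in 27 of 68 peaks (39.7%), against 39.2% of all FAIRE peaks on these chromosomes. The RUNX motif (TGTGGT) was found in 17 (25%), against 24.8%. The TEAD motif (GGAATG) was found in 21 (30.9%), against 21.4%, and the E-box read by ZEB and SNAI repressors (CACCTG) in 9 (13.2%), against 16.7%. AP-1 and RUNX shares in the windows were thus close to those of open chromatin throughout these cells. The tallest FAIRE peak of the window held an AP-1 match at VIM, FN1, LOX and S100A4 and none at SPARC, TGFBI, LOXL2 and CDH2. The FAIRE centres shown for TGFBI and CDH2 were chosen among peaks with a match. TEAD matches were most frequent in CDH2, at 6 of 13 peaks, and LOXL2, at 5 of 11, and S100A4 had the most AP-1 peaks, 6 of 9.

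**Figure D5:**
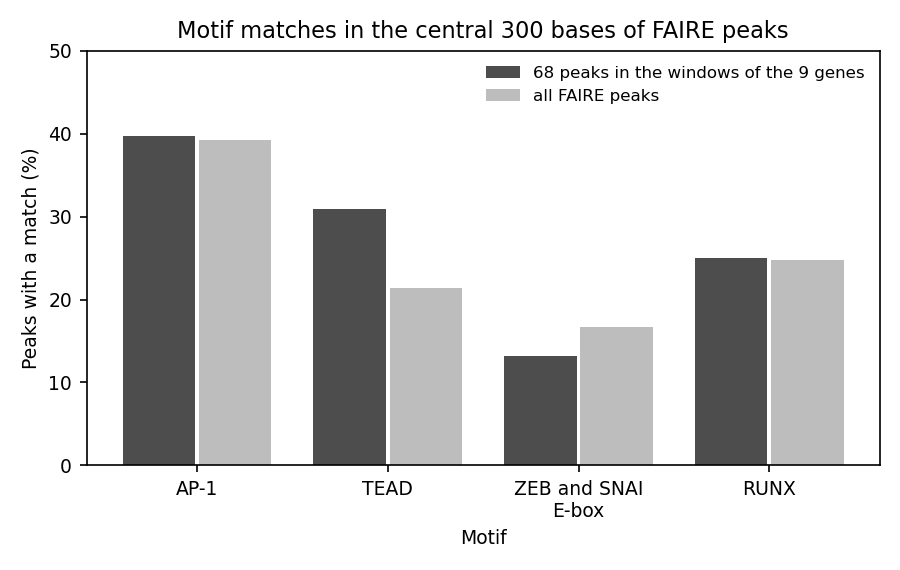
Share of FAIRE peaks (y axis, percent) with at least 1 match to each motif (x axis) in their central 300 bases, for the 68 peaks in the windows of the 9 genes and for all FAIRE peaks. AP-1 is matched in 39.7% and 39.2%, and TEAD in 30.9% and 21.4%.

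Further lists of related genes put the members in context. Of 26 other mesenchymal and matrix genes, 12 had H3K4me3 at a promoter, 13 H3K27Ac, 7 H3K4me1 and 10 FAIRE. No promoter peak of any list was found for 9 of them, or 34.6%, against 29.3% of coding genes; COL1A2, POSTN, LUM, DCN and BGN were among them. H3K4me3 and H3K27Ac were both present at 10, or 38.5%, against 61.3%. COL1A1, COL5A1, COL6A1, COL6A2, FBN1, THBS1 and VCAN had H3K4me3 at 3100 at the canonical start. The shares with H3K4me3 and H3K27Ac, 46.2% and 50%, were below those of all coding genes, that with H3K4me1, 26.9%, was above and that with FAIRE, 38.5%, was close. At the canonical start all 4 shares were below those of coding genes, at 42.3% for both H3K4me3 and H3K27Ac, 11.5% for H3K4me1 and 23.1% for FAIRE, against 65.1%, 60.2%, 12.5% and 31.8%.

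Among 30 relatives of the members by family, 14 had H3K4me3 and 16 H3K27Ac at a promoter, with 4 for H3K4me1 and 12 for FAIRE. The shares were 46.7%, 53.3%, 13.3% and 40%, of which only that of FAIRE was not below the share of all coding genes by the any-start rule. At the canonical start they were 40%, 46.7%, 13.3% and 33.3%, and those of H3K4me1 and FAIRE were slightly above the 12.5% and 31.8% of coding genes. No promoter peak was found for 43.3% of the relatives, against 29.3% of coding genes. S100A3, S100A5, S100A6 and S100A2 lie in the S100A4 window and share its peaks. The lysyl oxidases LOXL1, LOXL3 and LOXL4 all had H3K4me3 and H3K27Ac at their canonical starts, as did LOX and LOXL2. Of the filament genes related to VIM, DES and PRPH had no promoter peak and GFAP had peaks only away from its canonical start. Among cadherins, CDH4 had H3K4me3 and H3K27Ac at 3100, CDH3 had H3K4me3 alone at 323, and CDH5, CDH6 and CDH13 had no promoter peak. S100A8 and S100A9, calcium-binding proteins of myeloid cells, had none either.

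Of 14 epithelial genes, 12 had H3K4me3 at a promoter, 10 H3K27Ac, 4 H3K4me1 and 9 FAIRE, and RAB25 alone had no promoter peak. These shares were 85.7%, 71.4%, 28.6% and 64.3%, against 67.3%, 63.5%, 20% and 39.3% of all coding genes. At the canonical start the counts were 12, 9, 1 and 4, so most of the H3K4me1 and FAIRE calls came from other starts. The canonical shares for H3K4me1 and FAIRE, 7.14% and 28.6%, were below the 12.5% and 31.8% of coding genes, while those for H3K4me3 and H3K27Ac, 85.7% and 64.3%, were above 65.1% and 60.2%. The keratin genes KRT8, KRT18 and KRT19 had H3K4me3 at 3100 at their canonical starts. CDH1, which encodes E-cadherin and was counted in both of the last lists, had no H3K4me3 peak at any start and no peak of the 4 lists at its canonical start, but H3K27Ac and FAIRE peaks lay at other starts of the gene. CDH2 had no peak at any start. Peak lists do not measure transcripts, and expression of these genes was not analysed here.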

How the data were processed

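Peak lists of MDAMB231 cells were used as deposited, each made from both samples of an assay. Reads had been mapped with BWA to GRCh37 and filtered for duplicates and mapping quality, and peaks were called relative to input, by MACS for histone marks and by FindPeaks for FAIRE. The authors gave each histone peak its p-value on a −log10 scale multiplied by 10. The value deposited for a FAIRE peak is the height of its signal or coverage. The lists carry no counts or depth, so no interval was computed.

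Start sites and gene bounds were taken from GENCODE release 44 mapped to GRCh37, and peak starts were moved to count from 1. Peaks sharing 1 base or more with a window were counted in Python 3.11.15, and 400 simulated intervals gave 0 differences from bedtools 2.31.1. Sequences were read from the GRCh37 genome. Promoter sequences were compared for 8 of the 9 members, the other being not reported here, and are shown for 5. The members and lists were chosen with earlier results of these data known. In each window the promoter peaks and the 2 highest other peaks of each list were named, and further peaks were chosen after their values were seen. No test was made. The alternatives tried were other promoter and window sizes, other start sites, peak centres and stricter peaks.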

Additional observations from a re-analysis of the deposited data

How the results depend on the processing

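Of 44 alternative counts, 39 were within 1.5 times the reported count. With the most upstream start of each gene alone, 4 members had an H3K4me3 promoter peak and 5 an H3K27Ac peak: LOXL2 and CDH11 left both counts, S100A4 the former and TGFBI the latter. With promoters widened to 2 kb, H3K4me1 was counted at 6 members, with FN1, LOXL2 and CDH2 added. With genes widened by 100 kb, the windows held 26 H3K4me3 peaks in place of 17. When FAIRE peaks below the median height were dropped, 37 of 68 were left in the windows. The canonical start, an alternative added after seeing the data, took SPARC and TGFBI from the FAIRE count and TGFBI from the H3K27Ac count. No paired analysis was possible because both samples of an assay are merged in 1 list, which also means that samples were not left out singly. Depth is not in the lists, so a missing peak shows only that the threshold of the caller was not passed.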
